A study of Mus musculus with 4 samples.

Results

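Accessible regions of mouse lung adenocarcinoma cells were examined where the nearest start site assigned by the authors lies far away. The members are the 2487 peaks that the authors' deposited table annotates as distal intergenic and places over 200 kb, upstream or downstream, from the transcription start site of the assigned gene. They make up 3.07% of 80881 ATAC-seq peaks and 9.23% of 26943 distal intergenic peaks, and they were assigned to 741 genes. The annotation and the distance chose them, and no read value did.

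ATAC-seq reads out open chromatin through a transposase that inserts adapters where DNA is exposed. The cells, which the labels call KPC, are a KP mouse lung adenocarcinoma line that carries lentiviral Cas9 under puromycin selection. A lentiviral CRISPR activation vector with hygromycin resistance carried either a guide against the nuclear long noncoding RNA Malat1 (mA2 dRNA, 2 libraries), or a guide against luciferase, which the mouse genome lacks (Con dRNA, 2 libraries). Both groups share the line, Cas9 and the vector system, and the series calls the 2 libraries of each group biological replicates of a single cell line. Levels are group means of normalized reads, as the authors computed them for each peak, in mm10 coordinates. A peak counts as called, with a rise or a fall, at an authors' adjusted p under 0.05. Columns of single libraries could not be tied to samples and stay unused, so the means have no spread here, and only the authors' test weighs a difference against replicate error.

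Much of the mammalian genome far from genes is compact, and the open sites within it are often enhancers, insulator sites bound by CTCF, or promoters of unannotated transcripts. Genes of development, adhesion and axon guidance are known to sit beside long gene-poor stretches whose enhancers can act over great distances through looping. A linear distance therefore assigns a name to such a site, and the gene it acts on, if any, is not measured by this assay.

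The name "far from genes" held for part of the members. In the RefSeq annotation of the same build, 1839 of 2487 peaks (73.9%) lay over 200 kb from the body of any protein-coding gene, with a median gap of 281 kb. Against all RefSeq genes, noncoding RNAs and pseudogenes included, 158 peaks lay that far and the median gap was 43.4 kb. A RefSeq gene body covered 239 of the peaks, a long noncoding RNA in 208 of them and a protein-coding gene in 8. They are called far intergenic peaks here, by the rule and not by the absence of any transcript. Promoter peaks within 1 kb of the start site were used to check the cells. Of 6 tumour and epithelial genes, 4 had such a peak (Cdh1, Krt8, Krt18 and Hmga2), while Nkx2-1 and Epcam, defining genes of lung epithelium and epithelium, had none in the table used here. Leukocyte genes had 0 of 6, endothelial genes 1 of 5 (Kdr) and fibroblast genes 2 of 5 (Col1a1 and Pdgfrb).

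Sequence can be shown for the far intergenic peaks that coincide with the start of a RefSeq transcript, since a table of promoter windows of this build was at hand and a genome was not. Of the members, 14 overlapped such a window of 300 bases (250 before and 50 after the start), each of a long noncoding RNA. Called were 0 of the 14, beside 5.83% of far intergenic peaks and 2.73% of all peaks, and 14 peaks are too few to compare. The peak with the smallest p among them and the 2 with most reads are printed below on the transcript's strand, 5′ to 3′, with the bases inside the peak in capitals.
Gm30063 window, chr3:39460530-39460829, plus strand: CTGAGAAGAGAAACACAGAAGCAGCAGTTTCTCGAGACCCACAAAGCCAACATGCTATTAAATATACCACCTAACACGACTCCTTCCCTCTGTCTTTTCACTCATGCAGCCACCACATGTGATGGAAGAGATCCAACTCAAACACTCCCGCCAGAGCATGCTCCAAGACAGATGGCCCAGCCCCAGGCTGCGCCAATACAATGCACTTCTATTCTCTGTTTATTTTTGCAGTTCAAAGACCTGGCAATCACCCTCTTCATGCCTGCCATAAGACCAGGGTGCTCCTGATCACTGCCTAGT
Gm39473 window, chr12:74825050-74825349, plus strand: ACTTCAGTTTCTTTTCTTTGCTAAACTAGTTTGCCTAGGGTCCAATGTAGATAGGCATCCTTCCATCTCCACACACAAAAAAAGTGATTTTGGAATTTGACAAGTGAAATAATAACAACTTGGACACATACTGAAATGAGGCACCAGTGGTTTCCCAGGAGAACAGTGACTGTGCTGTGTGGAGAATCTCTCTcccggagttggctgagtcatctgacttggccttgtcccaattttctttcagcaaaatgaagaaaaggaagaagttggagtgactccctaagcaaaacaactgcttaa
Gm26901 window, chr1:7398047-7398346, minus strand: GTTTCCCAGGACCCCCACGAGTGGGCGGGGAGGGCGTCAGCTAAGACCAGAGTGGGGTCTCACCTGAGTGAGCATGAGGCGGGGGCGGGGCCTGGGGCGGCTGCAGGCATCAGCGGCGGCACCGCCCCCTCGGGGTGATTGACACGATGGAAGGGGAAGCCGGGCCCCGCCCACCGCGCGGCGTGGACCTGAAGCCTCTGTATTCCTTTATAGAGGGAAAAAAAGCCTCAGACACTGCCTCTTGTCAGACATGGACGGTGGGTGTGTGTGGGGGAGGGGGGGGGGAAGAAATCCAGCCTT
The Gm30063 peak, which the authors assigned to the cadherin gene Fat4 at 574 kb, had a mean of 162 reads under the Malat1 guide and 73.5 under the luciferase guide. The authors' deposited table gives an adjusted p of 0.119, so this 2.20-fold difference was not called. The Gm39473 peak, assigned to the potassium channel gene Kcnh5 at 352 kb, held 481 and 556 reads, and the Gm26901 peak, assigned to Pcmtd1 at 309 kb, held 653 and 715. Both of these strong peaks had the lower Malat1 mean, and the authors' deposited table lists adjusted p of 0.726 and 0.893.

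The 3 windows differ in base composition. The Gm26901 window was 65.7% G or C with 18 CpG pairs, the Gm30063 window 49.0% with 4, and the Gm39473 window 41.7% with 1, beside medians of 52.7% and 7 over 32851 RefSeq promoter windows. Letters of 5 motifs were searched on both strands. The AP-1 letters TGANTCA, held by 7.81% of all windows, occurred in the Gm39473 window outside the peak, and the CTCF core letters AGGNGGC, held by 29.4%, occurred in the Gm26901 window inside the peak. The Gm30063 window held neither, nor the CRE core TGACGT (7.51%), the TEAD letters GGAATG (14.7%) or the forkhead letters TGTTTAC (3.65%). A match describes these letters and is not a measured binding site.

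Far intergenic peaks were weak and widely spaced. Their median level over both groups was 46.0 normalized reads, against 59.8 for distal intergenic peaks up to 200 kb from the start site, 272 for promoter peaks and 73.1 for all peaks. The 5th and 95th percentiles were 18.4 and 289.8 reads. The gap from a far intergenic peak to the nearest other peak had a median of 13.8 kb, against 4.78 kb for the nearer distal intergenic peaks. Peaks within 10 kb of each other formed 1855 loci, of which 419 held more than 1 peak and the fullest held 7. The median distance from the start site was 330 kb and the greatest 2347 kb.

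None of the 5 strongest far intergenic peaks was called. The highest level belonged to a peak 284 kb upstream of Pex2, a peroxisome assembly gene, on chromosome 3 from 5860456 to 5860856, with 2743 reads under the Malat1 guide and 2713 under the luciferase guide. The next was a peak on chromosome 2 assigned to 1700019E08Rik, with 960 and 893 reads, which lies between Zeb2 and Acvr2a. A peak 202 kb upstream of Pgrmc2, a haem and steroid binding protein, held 1025 and 805 reads, and the authors' deposited table lists 0.107, the smallest adjusted p of the 5. Peaks assigned to Actl7b and to Tns3, a focal adhesion protein, held 803 and 827 reads in the first case and 676 and 849 in the second, where the authors' deposited table lists adjusted p of 0.990 and 0.212. The 5 strongest peaks thus lay on both sides of equality, within 1.27-fold.

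**Figure D1:**
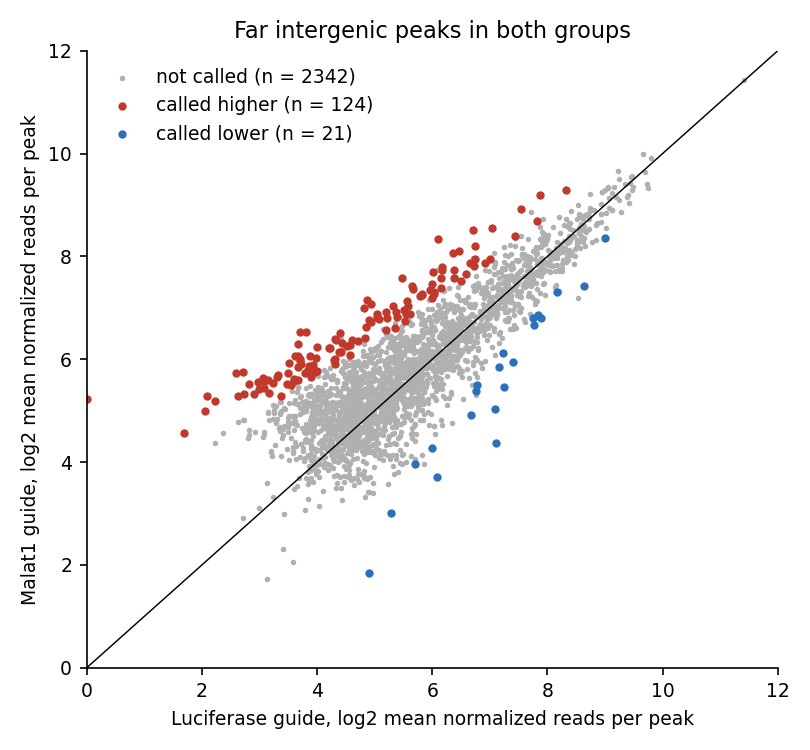
Each point is 1 of the 2487 far intergenic peaks, with the log2 of the authors' mean normalized reads under the luciferase guide on the horizontal axis and under the Malat1 guide on the vertical axis, and the line marks equal means. The 124 peaks called higher (red) have a luciferase median of 23.8 reads and the 21 called lower (blue) of 142 reads, and the strongest peaks sit near the line.

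The question of the series, whether raising Malat1 changes chromatin accessibility, was asked of these peaks through the single contrast of the design. Malat1 RNA itself is not read out by this assay, so the activation was not checked here. With the Malat1 guide 124 far intergenic peaks rose and 21 fell, 145 in all or 5.83% of the members, where the same rule called 2.73% of all peaks. Higher calls were 4.99% of the members against 2.23% of all peaks, and lower calls 0.844% against 0.507%. The calls fell at 115 assigned genes, 95 with a rise and 20 with a fall, and 0 genes had both. Only 21 of the 115 genes held 2 or more calls, so most could not have had both. Rises made up 85.5% of their calls and 81.5% of the calls over all peaks. With differences centred by chromosome the split became 95 rises and 31 falls, 75.4%, beside 68.1% over all peaks. The share of members called was then 5.07% against 2.2% of all peaks. It was 5.47% against 2.49% with centring on the median of all peaks, 5.31% against 2.44% along abundance, and 4.54% against 2.04% by 10 Mb window. Of the main calls, 83 rises and 19 falls were called in the same direction under each of the 4 centrings tried.

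The median level of the peaks that rose was 23.8 reads under the luciferase guide and 84.7 under the Malat1 guide, and the median rise was 3.45-fold, against 2.88-fold for all called rises. Of the 124, 119 rose at least 2-fold and 47 at least 4-fold. The peaks that fell had a median of 142 reads with the luciferase guide and 45.3 with the Malat1 guide, a median fall of 2.61-fold. The peaks that were not called had luciferase and Malat1 medians of 42.0 and 48.8 reads. A call by direction itself favours a low luciferase mean among rises and a high one among falls, so these levels are a description. Rises started from as much as 322 reads. At 1 called rise, assigned to Fut8 and named here after its values were seen, the luciferase mean stood at 1 read, the lowest value the table holds, against 37.5 reads with the Malat1 guide, so no fold is given. Over all members the median difference was 0.18 on the log2 scale, against 0.09 over all peaks, and 1557 of 2487 (62.6%) had the higher Malat1 mean, against 60.8% of all peaks.

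The share of called peaks rose gradually with distance up to 200 kb, showed no step there and had no steady trend beyond. Among distal intergenic peaks it was 2.06% up to 10 kb from the start site, 2.40% from 10 to 50 kb, 3.81% from 50 to 100 kb and 5.24% from 100 to 200 kb. Among the far intergenic peaks it was 4.90% from 200 to 300 kb, 6.86% from 300 to 500 kb, 5.94% from 500 to 1000 kb and 5.88% beyond, the last over 68 peaks. Promoter peaks had 1.42% and intron peaks 3.03%. Peaks upstream and downstream of the assigned start had 5.50% and 6.21%. At the edge of the rule, the nearest members, assigned to Egflam and Gm6578, lay 200076 and 200088 bp away and held 67.8 against 72.1 and 12.2 against 26.6 reads. The nearest peaks left out, assigned to Klf7 and P3h2, lay 199980 and 199958 bp away and held 126 against 164 and 26.8 against 13.2 reads, each given with the Malat1 guide first.

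**Figure D2:**
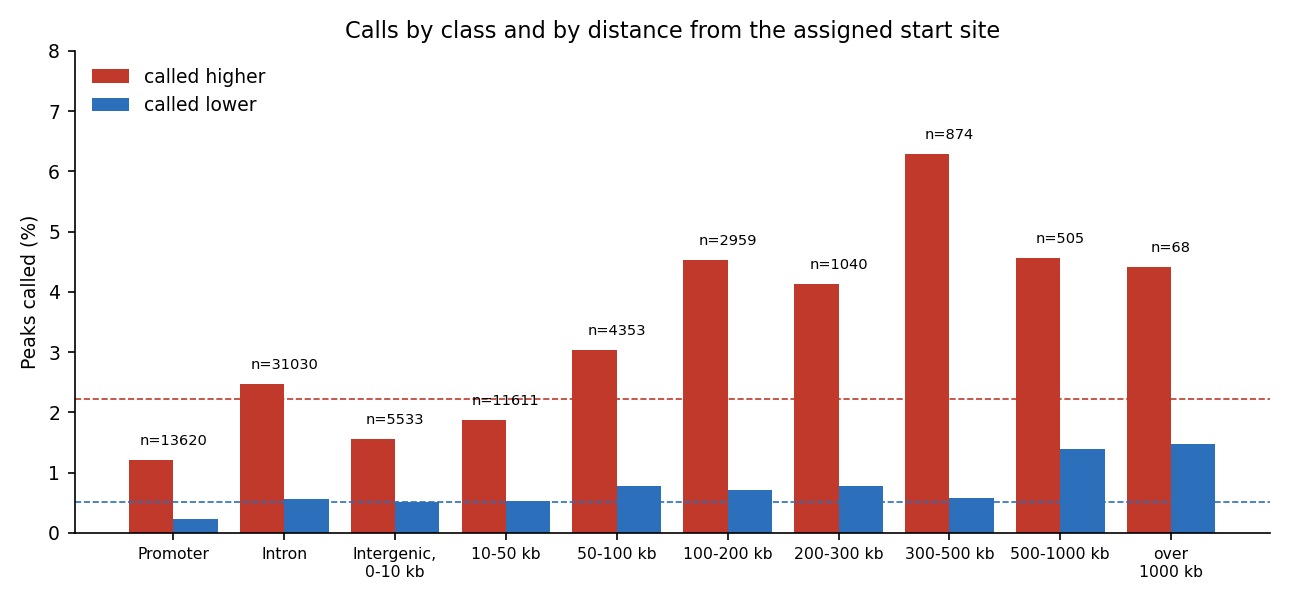
Bars give the percent of peaks called higher (red) and lower (blue) from the authors' deposited table, for promoter and intron peaks and for distal intergenic peaks by distance from the assigned start site, and dashed lines give the shares over all peaks (2.23% and 0.507%). Rises climb from 1.55% within 10 kb to 4.53% at 100 to 200 kb and stand between 4.13% and 6.29% beyond 200 kb, while falls stay at or below 1.47%.

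Within each of 4 classes of peak strength, a larger share of far intergenic peaks than of nearer distal intergenic peaks was called, a difference given without a test. Under 30 reads the shares were 3.23% and 1.23%, from 30 to 60 reads 5.91% and 2.26%, from 60 to 120 reads 9.17% and 3.52%, and from 120 reads 6.29% and 4.46%. The median difference did move with strength among far intergenic peaks, from 0.28 under 30 reads through 0.25 and 0.18 to 0.02 from 120 reads. Among the nearer peaks it ran from 0.08 through 0.12 and 0.09 to 0.08, so the strongest far intergenic peaks lay below the strongest nearer ones in this measure. The nearer peaks pool all distances up to 200 kb. Those from 100 to 200 kb, with 5.24% called beside 5.83% of far intergenic peaks, were not split by strength.

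**Figure D3:**
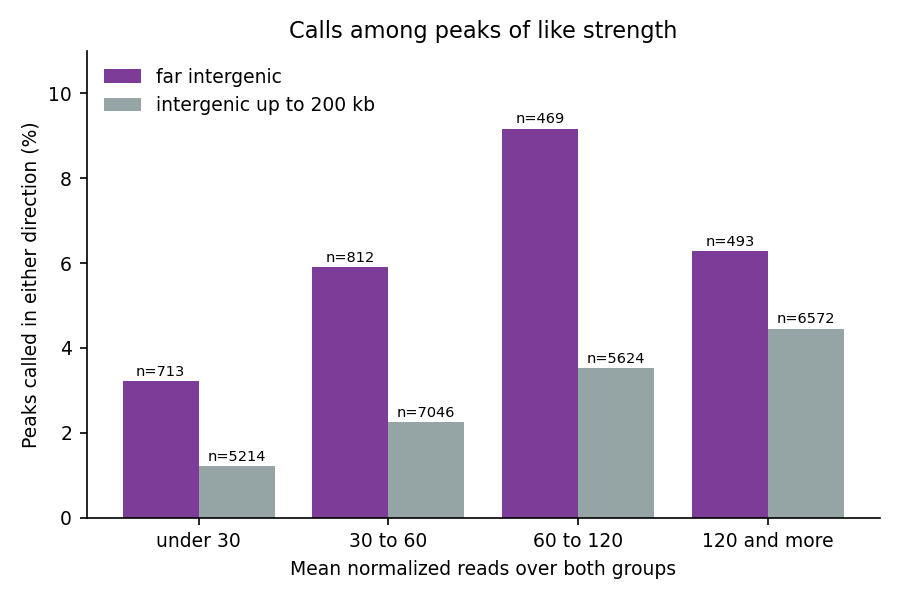
Bars give the percent of peaks called in either direction within 4 classes of mean normalized reads over both groups, for far intergenic peaks (purple) and distal intergenic peaks up to 200 kb from the start site (grey), with the number of peaks above each bar. The purple bar is the taller in each class, by the widest margin from 60 to 120 reads (9.17% against 3.52%).

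Chromosomes differed widely. On chromosome 15, 20 of 124 far intergenic peaks rose and 0 fell, 16.1% against 4.72% of the other peaks there. On chromosome 19, which carries Malat1, 7 of 55 rose and 1 fell, 14.5% against 3.63%, and on chromosome 6, 9 of 100 rose and 2 fell, 11% against 3.11%. Chromosome 16 had 7 rises and 1 fall among 101 peaks (7.92% against 3.51%), and chromosome 13 had 9 and 1 among 141 (7.09% against 3.24%). Median differences were 0.62, 0.59 and 0.48 on chromosomes 15, 19 and 13, where the other peaks had 0.20, 0.19 and 0.23. Falls were most frequent on chromosome 3, with 6 beside 7 rises among 201 peaks (6.47% called against 2.38% of the other peaks). None of the 86 peaks of chromosome X was called, against 1.02% of the other peaks there. The median difference of far intergenic peaks exceeded that of the other peaks on 16 of 20 chromosomes, and their share called did so on 18, chromosomes 1 and X being the exceptions. Copy number was not measured, and copies of a segment and opening per copy cannot be told apart in these bulk libraries.

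**Figure D4:**
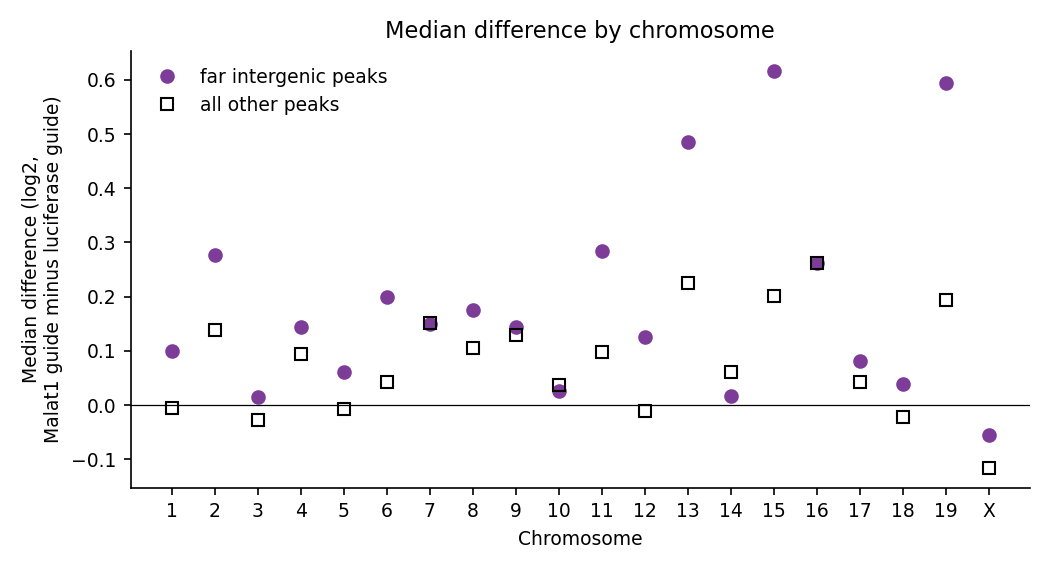
Points give the median log2 difference (Malat1 guide minus luciferase guide) of far intergenic peaks (filled circles) and of all other peaks (open squares) on each chromosome. Far intergenic peaks stand highest on chromosomes 15, 19 and 13 at 0.62, 0.59 and 0.48, and the circle lies above the square on 16 of 20 chromosomes.

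Among single peaks the smallest p belonged to a rise between Bmp2, a bone morphogenetic protein, and Hao1, a liver oxidase. It lies on chromosome 2 from 134342573 to 134342973, 154 kb from the body of Hao1, and its mean was 324 reads under the Malat1 guide and 68.6 under the luciferase guide, 4.72-fold more. The authors' deposited table lists its adjusted p as 3.32e-12. Each of the 10 far intergenic peaks between Bmp2 and Hao1, an interval of 0.934 Mb, had the higher Malat1 mean, and 3 rose. Their median difference was 1.63, where all peaks of the surrounding 10 Mb window had 0.21.

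The next rise lies in a gene-poor interval. On chromosome 1 from 114039359 to 114039759 a peak held 366 against 104 reads, a 3.52-fold rise (adjusted p 3.80e-08, authors' deposited table). It stands 1645 kb upstream of Cntnap5a, a neurexin-like adhesion protein, and 2174 kb from Dsel, an epimerase of dermatan sulfate. All 13 far intergenic peaks of this 3.82 Mb interval had the higher mean, with differences from 0.12 to 1.81, and 2 rose, of which 1 kept its call under every centring. A peak in the 3.58 Mb interval next to Pcdh10, a protocadherin, rose 4.30-fold from 44.7 to 192 reads. The authors assigned it to 2610316D01Rik at 1432 kb, and it lies on chromosome 3 from 43945809 to 43946209. The third of the farthest rises, 1226 kb from 4930404A05Rik on chromosome 16, went from 70.8 to 192 reads.

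Strong peaks rose as well as weak ones. A peak 490 kb downstream of Psat1, an aminotransferase of serine synthesis, went from 233 to 583 reads, a 2.50-fold rise on chromosome 19 from 15457277 to 15457677. A peak 306 kb downstream of Rps24, a ribosomal protein gene, went from 186 to 488 reads within the noncoding RNA Gm31838, and a peak upstream of Habp2, a secreted protease that binds hyaluronan, from 131 to 375 reads. The Habp2 peak lies 88.6 kb from the body of Tcf7l2, a transcription factor of Wnt signalling, and all peaks of its 10 Mb window had a median difference of 0.40. For these 3 peaks the authors' deposited table lists no adjusted p above 1.06e-04.

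Other rises started from lower levels than these 3 peaks. A peak within the noncoding RNA Gm34196, 391 kb downstream of Tmem161b on chromosome 13, rose 7.03-fold from 13.1 to 92.1 reads. A peak assigned to Dhx35, an RNA helicase, rose 6.62-fold to 92.6 reads. At Lrrn1, a leucine-rich repeat protein of neurons, the peak 210 kb upstream rose 4.91-fold from 29.2 to 143 reads. A peak 766 kb downstream of Olfm4, a secreted glycoprotein that marks intestinal stem cells, rose 3.22-fold from 64.6 to 208 reads. These peaks kept their calls under the 4 centrings.

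Peaks in the interval between Robo1 and Robo2, receptors for the Slit guidance proteins on chromosome 16, had the higher mean in 4 of 4 cases, and 3 rose. The authors assigned 3 of the 4 far intergenic peaks there to Mir691, a microRNA gene, and the fourth to Robo1. The Mir691 peaks went from 30.6 to 135, from 6.54 to 53.7 and from 6.15 to 39.2 reads, for which the authors' deposited table lists adjusted p of 6.14e-05, 0.00252 and 0.00811. The Robo1 peak, at 51.1 against 16.1 reads, was not called (adjusted p 0.0629, authors' deposited table). All peaks of the surrounding 10 Mb window had a median difference of 0.31.

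Peaks that fell were fewer, and several came in pairs. On chromosome 3, 2 peaks between Gm6098 and Zbbx fell, 24.1 kb apart. The one from 74613154 to 74613554 went from 137 reads with the luciferase guide to 20.6 with the Malat1 guide, 6.65-fold lower (adjusted p 4.72e-06, authors' deposited table), and the one assigned to Gm20356 went from 152 to 43.9 reads. Between Tbx15, a T-box factor, and Spag17, a protein of motile cilia, also on chromosome 3, a peak fell from 136 to 32.9 reads and another from 29.7 to 3.57. Of the 10 far intergenic peaks in that interval 9 had the lower Malat1 mean.

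A further pair lay upstream of Igfbp3, a secreted binding protein of insulin-like growth factors. On chromosome 11 the peak from 7794265 to 7794665, 580 kb away, fell 2.30-fold from 396 to 172 reads, and its neighbour 582 kb away fell 2.15-fold from 219 to 102, where the authors' deposited table lists adjusted p of 2.23e-04 and 0.00682. Of 17 far intergenic peaks assigned to Igfbp3, 12 had the lower mean, with a median difference of -0.30, where all peaks of the 10 Mb window had 0.04. The whole interval up to Tns3 held 25 far intergenic peaks, 16 with the lower mean. The nearest of the 17, at 210 kb, held 453 against 489 reads and was not called.

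The remaining falls named by the rule lay at scattered loci. A peak 249 kb upstream of Pfkp, a phosphofructokinase of glycolysis, fell from 236 to 111 reads. At Ngly1, a deglycosylating enzyme, a peak 203 kb upstream fell from 168 to 61.9. A peak near Rorb, a nuclear receptor, fell 1.95-fold from 228 reads, and a peak near Skap2, an adaptor of Src kinases, 2.46-fold from 142. Peaks assigned to Grxcr1, BC006965 and Gramd2b fell 5.18-fold, 3.37-fold and 2.61-fold. The farthest falls were 1832 kb from Gm32455, from 151 to 69.7 reads, 837 kb from BC006965, from 102 to 30.2, and 609 kb from Ppp6c, a protein phosphatase, from 514 to 328. All these falls kept their calls under the 4 centrings, and the authors' deposited table lists adjusted p between 0.00119 and 0.0293 for them.

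Of 179 assigned genes with at least 5 far intergenic peaks, 33 had the higher Malat1 mean in every peak and 6 the lower mean in every peak. The higher mean was the more frequent to begin with, at 62.6% of far intergenic peaks and 60.8% of all peaks. Calls fell in 98 of 516 intervals between neighbouring protein-coding genes. There were 2 or more calls in 32 intervals, which held 79 of the calls, and 2 of them held a rise and a fall. These were the interval between Olfm4 and Pcdh17 and the interval between Klf4 and Actl7b, where a peak assigned to Actl7b fell from 52.1 to 15.7 reads. Neighbouring peaks share their segment of the genome and are not independent.

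The genes with most called far intergenic peaks were Mir1907, Chd7 and Psat1. All 11 peaks assigned to Mir1907, a microRNA gene, which lie over 351 kb between Csmd3 and Trps1 on chromosome 15, had the higher mean, with differences from 0.72 to 1.95, and 4 rose. The whole interval held 18 far intergenic peaks, of which 4 had the lower mean (down to -0.96). The peak from 50400381 to 50400781 went from 33.0 to 118 reads and kept its call under every centring. The other 3 lost theirs with centring by chromosome (adjusted p 0.0522 to 0.125) and by 10 Mb window (0.102 to 0.215). Of these, the peak from 46.6 to 118 reads also lost its call with centring on the median (0.0650) and along abundance (0.0656). The peak from 11.7 to 45.3 reads also lost its call along abundance (0.0616). The window median was 0.31. Trps1, the nearest protein-coding neighbour, is a GATA-type repressor. All 6 peaks assigned to Chd7, a chromatin remodeller, had the higher mean over 48.2 kb, and 4 rose, led by a 5.25-fold rise from 12.7 to 66.9 reads. These peaks lie 216 to 264 kb from the start of Chd7 and yet 38.3 to 86.1 kb from the end of its RefSeq body, so the distance partly spans the gene. The interval up to Clvs1 held 9 far intergenic peaks, 1 of them with the lower mean (-0.38). The window median there was 0.07, and 3 of the 4 calls held under the centrings. At Psat1 all 3 assigned peaks rose, in an interval where 2 of 8 far intergenic peaks had the lower mean (down to -0.63), and the one from 46.0 to 108 reads lost its call under each centring (adjusted p 0.0713 to 0.134).

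At Ttll7, a tubulin polyglutamylase, 8 of 8 peaks had the higher mean and 3 rose, the strongest from 226 to 411 reads at 950 kb, a call that centring by 10 Mb window ended (adjusted p 0.0548). The whole interval beyond Ttll7 held 19 far intergenic peaks, 4 of them with the lower mean (down to -0.62). At Jag1, a ligand of Notch receptors, 14 of 14 had the higher mean and 2 rose, one of them from 21.0 to 91.8 reads at 528 kb. The interval beyond Jag1 held 20, of which 3 had the lower mean (down to -0.63). Both genes were named after their values were seen. The assigned gene with most peaks was Kif18a, a mitotic kinesin, with 26 far intergenic peaks on chromosome 2, of which 18 had the higher mean. Their median difference was 0.16, against 0.18 over all far intergenic peaks, and 0 were called, where the share over all peaks was 2.73%.

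**Figure D5:**
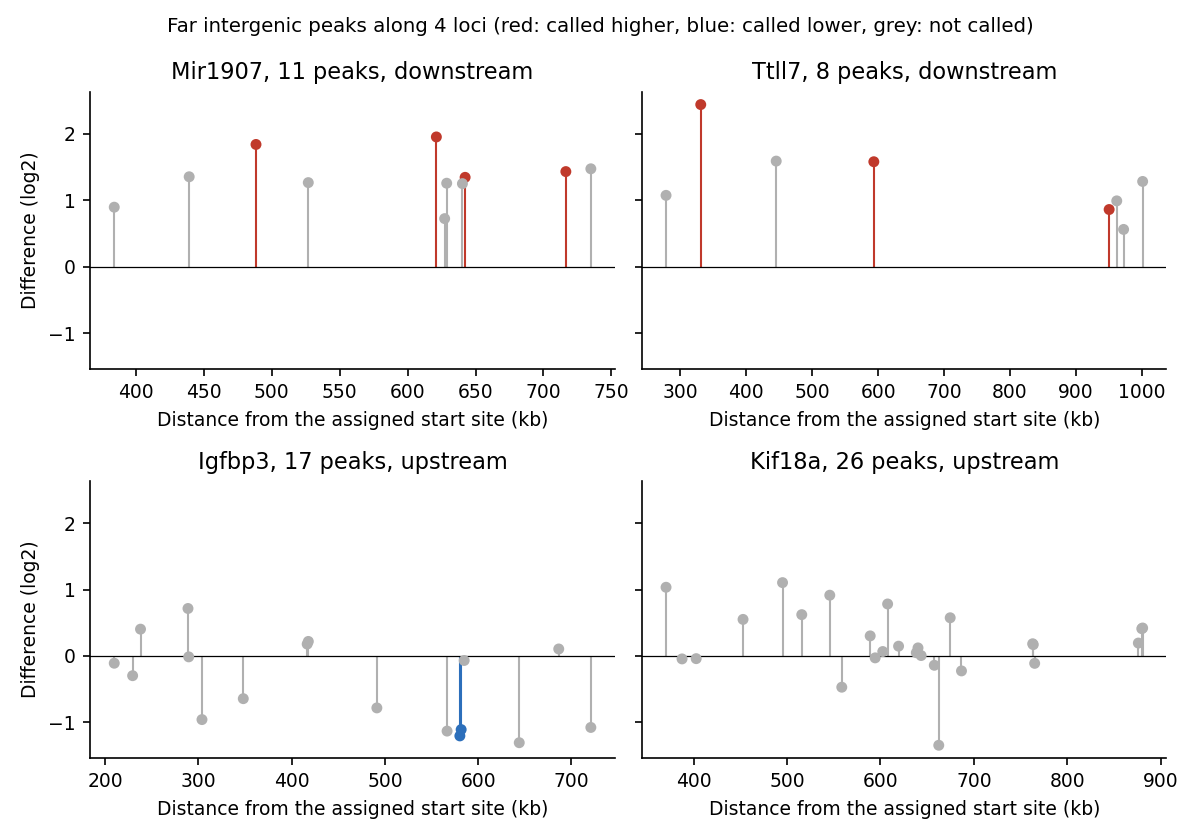
Points give the log2 difference (Malat1 guide minus luciferase guide) of each far intergenic peak assigned to 4 genes against its distance in kb from the start site, in red where called higher, blue where called lower and grey where not called. The 11 peaks at Mir1907 and the 8 at Ttll7 all lie above 0, the called pair at Igfbp3 stands at 580 and 582 kb, and the 26 peaks at Kif18a lie on both sides of 0.

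On a list of 40 developmental regulators many of which neighbour gene-poor stretches, 13 had far intergenic peaks, 58 in all, of which 6 rose at 4 genes and 0 fell (10.3%, against 2.73% of all peaks and 5.83% of far intergenic peaks). Of these 6 calls, which include neighbouring pairs at Tbx18 and Nr2f1, 3 were lost with centring by chromosome and by 10 Mb window. With those centrings 5.07% and 4.54% of all far intergenic peaks were called. The median difference of the 58 peaks was 0.38, against 0.09 over all peaks and 0.18 over all far intergenic peaks. A peak 202 kb upstream of Tbx18, a T-box factor, rose 4.50-fold from 28.3 to 127 reads (adjusted p 3.95e-04, authors' deposited table). A peak 263 kb upstream of Irx1, an Iroquois homeobox factor, rose 4.53-fold from 12.8 to 57.9 reads and lies between Irx1 and Irx2. A peak 370 kb upstream of Klf4, a zinc finger factor of epithelia and pluripotency, rose from 128 to 246 reads, and its call ended with centring on the median, by chromosome or by window (adjusted p 0.0509, 0.0565 and 0.0932). At Nr2f1, an orphan nuclear receptor, 11 of 11 peaks had the higher mean and 2 rose, from 49.0 to 118 and from 36.9 to 95.5 reads, in a window with a median of 0.32. Each of the 4 centrings ended both calls (adjusted p 0.0587 to 0.221), and the Nr2f1 and Actl7b peaks were named after their values were seen.

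Genes of adhesion and axon guidance had 45 far intergenic peaks at 16 of 43 listed genes. Of these peaks 2 rose and 0 fell (4.44%, against 2.73% of all peaks and 5.83% of far intergenic peaks). The higher mean was found in 39 of the 45, beside 62.6% of far intergenic peaks and 60.8% of all peaks. Their median difference was 0.34, against 0.18 over all far intergenic peaks and 0.09 over all peaks. A peak 457 kb upstream of Flrt2, an adhesion and guidance protein, rose from 4.18 to 31.9 reads. A peak 207 kb upstream of Ncam1, a neural adhesion molecule, went from 15.9 to 54.5 reads, a call (adjusted p 0.0430, authors' deposited table) that each of the 4 centrings ended (0.0677 to 0.0919). Secreted factors and matrix genes had 4 far intergenic peaks at 2 of 25 listed genes. By the authors' test 0 were called, beside 2.73% of all peaks and 5.83% of far intergenic peaks, and 4 peaks are too few to compare. An unadjusted p under 0.05 in that test was found for 1 of the 4, beside 20.1% of far intergenic peaks. The peak near Hgf, a growth factor for epithelia, held 15.1 reads with the Malat1 guide against 39.7, and the peak near Vegfc, a growth factor of lymphatic vessels, 87.8 against 55.5. No marker gene of the 4 cell types checked above had a far intergenic peak.

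Calls were found both inside noncoding transcripts and far from any annotated gene, and the shares below stand beside 5.83% of all far intergenic peaks and 2.73% of all peaks. Within RefSeq long noncoding RNAs 7 of 208 far intergenic peaks rose and 2 fell (4.33%). Of the 158 peaks over 200 kb from every RefSeq gene, 11 rose and 3 fell (8.86%), and of the 1839 over 200 kb from protein-coding genes, 98 rose and 13 fell (6.04%). The 648 peaks nearer to a protein-coding gene had 26 rises and 8 falls (5.25%).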

How the data were processed

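The 4 libraries (2 per guide) came from an Active Motif kit, per the labels' protocols. Bowtie2, Picard, MACS2, DiffBind and ChIPseeker are among the tools listed without versions, with mm10 as the build, per the submitters' processing notes, while the sources used here do not say what each did, how reads were filtered and normalized, or whether peaks were called per library. The authors' deposited table gives, per the file headers, the log2 of the mean normalized reads per group and over both groups, a log2 fold, a p-value and an adjusted p-value for each of 80881 peaks, of which 99.8% are 401 bp wide. The adjusted p matched a Benjamini-Hochberg adjustment over all peaks within 7.40e-06. The header's dmA12 and dLuc were taken as mA2 and Con, since the series holds 1 contrast. The table's 4 per-library columns match no sample label and were not used, so depth per library is unknown and no fit per library was made.

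Each difference subtracts the luciferase guide's log2 mean from the Malat1 guide's, and folds are ratios of the deposited group means. For the alternatives, differences were centred on the median of all peaks, within 20 bins of abundance, by chromosome or by 10 Mb window (at least 20 peaks). Each centring used the standard error that the deposited p-value implies, and p was adjusted again over all peaks. Simulated data with normal errors and a uniform shift tested only the centring on the median. Gene positions and promoter sequences are RefSeq's for GRCm38.p6, the build mm10 names, and all 2487 assigned gene IDs matched. Python 3.11.15, pandas 2.3.3, numpy 2.4.6 and scipy 1.17.1 were used.

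Named peaks are the 12 rises and 12 falls with the smallest p (1 per gene), the 3 farthest calls per direction, the 5 strongest peaks, the 3 genes with most calls and up to 3 genes per list, unless marked otherwise, and 1 of these rises is not reported here. Members, lists and tests were chosen with earlier results of these data known.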

Additional observations from a re-analysis of the deposited data

How the results depend on the processing

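The count of 145 called far intergenic peaks stayed within 1.5 times, at 113 to 141, with the 4 centrings, a fold minimum of 2, merging within 10 kb, and without peaks under 20 reads. It was 145 without chromosomes X and Y. An adjusted p under 0.01 left 86 (77 higher, 9 lower), and under 0.1 there were 34 lower. A distance minimum of 100 kb gave 300 (258 higher, 42 lower) and one of 500 kb gave 34 (26 higher, 8 lower), over more and fewer peaks by construction. The median difference of 0.18 became 0.17 and 0.20 with these distances, 0.19 both without weak peaks and without chromosomes X and Y, and 0.089, 0.0762, 0.10 and 0.0706 with centring on the median, along abundance, by chromosome and by 10 Mb window. The 59 named peaks include uncalled ones, such as the 5 strongest, which had no call to lose. Of the called ones, many of them named for a small p, 5, 5, 7 and 7 lost their call under these centrings, and 0 reversed. No paired analysis was possible because the table's named columns hold group means without replicate numbers, and for the same reason a count model or limma per library and leaving out each library were not run. Weak peaks limit precision: the lowest group means rest on a few reads.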
